A study of Mus musculus with 16 samples.

Results

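The genes described here encode the proteins of the cytosolic ribosome. They were taken by symbol, as the large subunit (60S) genes with the prefix Rpl, including Rplp0, Rplp1 and Rplp2, and the small subunit (40S) genes with the prefix Rps. The rule found 79 genes among the 48593 genes of the count table, 33 for the 40S and 46 for the 60S subunit, and all 79 passed the filter on low counts. Of the 33, Rps3a2 and Rps3a3 are annotated as processed pseudogenes and are near-empty copies of Rps3a1. Their mean levels were 2.65 and 0.544 CPM (counts scaled to library size) in the wild type libraries. Summaries therefore run over the other 77 genes unless stated.

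RNA was sequenced from mouse germinal centre B cells, sorted from the spleen as B220+/PNA+/CD95+ cells after immunisation with sheep red blood cells. The 16 libraries came from 2 cohorts. The KO cohort held 3 Crebbp-WT and 3 Crebbp-KO (homozygous) libraries, and the RH cohort held 3 Crebbp-WT, 4 Crebbp-RH/WT (heterozygous, here RH HET) and 3 Crebbp-RH/RH (homozygous, here RH HOMO) libraries. Crebbp encodes a histone acetyltransferase, the KO allele is a conditional deletion in germinal centre B cells and RH is a knock-in allele. The Cre driver and the animals' ages were not given in the sources used here, and the protocol and a sample tag give different times after immunisation, 12 and 10 days. Libraries are named by group and number, and the numbers only name them. RH cohort WT 1 belongs to the RH cohort by its title and to the KO cohort by its batch tag. Nothing in the labels ties each library to a mouse of its own, and the p-values below therefore speak only of the spread from library to library, which may be technical.

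A ribosome needs the ribosomal proteins in near equal numbers, and their genes are transcribed at high and similar levels in growing cells. Their mRNAs usually begin with a short run of pyrimidines (the terminal oligopyrimidine, or TOP, motif), through which mTOR signalling controls their translation together. Germinal centre B cells are among the fastest dividing cells of the body, and the ribosome supplies the proteins for that growth.

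The bases around the start sites of 7 members show where a pyrimidine run stands near the start and where it does not. RefSeq start windows (GRCm38.p6) were at hand for 57 of the 79 members. Each line gives 30 bases, 5′ to 3′ on the gene's strand, with the annotated start after the first 15 bases. Capitals mark a run of a C followed by at least 5 further C or T bases that begins within 10 bases of the start. The 7 were chosen because the results below turn on them.
Rps6: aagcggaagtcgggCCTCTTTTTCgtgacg
Rps27: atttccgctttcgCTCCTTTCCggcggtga
Rpl15: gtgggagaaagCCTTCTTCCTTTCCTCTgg
Rps2: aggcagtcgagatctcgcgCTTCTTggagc
Rpl39: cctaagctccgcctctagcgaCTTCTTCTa
Rpl27: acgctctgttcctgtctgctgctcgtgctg
Rpl22: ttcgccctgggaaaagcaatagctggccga

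The windows lie at chr4:86857353-86857382 (Rps6, minus strand), chr3:90213634-90213663 (Rps27, minus), chr14:18270972-18271001 (Rpl15, minus), chr17:24720048-24720077 (Rps2, plus), chrX:37085208-37085237 (Rpl39, minus), chr11:101442230-101442259 (Rpl27, plus) and chr4:152325711-152325740 (Rpl22, plus). Rpl27 and Rpl22 hold no such run in this window, and RefSeq lists 2 starts for Rpl22. A run was found in 31 of the 57 members (54.4%) and in 21.9% of the 27025 genes with a window, searched on the sense strand only. In the 300 bases from 250 before to 50 after the start, searched on both strands, the letters CCGGAAG stood in 42.1% of the members and 9.93% of all genes, and TGACGTCA in 8.77% and 2.03%. GGGCGG stood in 61.4% against 38.2%, and CACGTG in 10.5% against 8.09%. These matches describe the letters and are no evidence of binding.

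The libraries held between 41362856 and 93040297 counts each. Counts over the whole Crebbp gene did not separate the KO libraries (108 to 136.9 CPM) from their wild type (126.6 to 148.6 CPM; log2 difference −0.14 ± 0.17 SE, edgeR adjusted p = 0.826), and whole-gene counts do not check a deletion of part of a gene. Markers of germinal centre B cells summed to between 7507 and 8734 CPM in every library, while those of macrophages summed to at most 31.8 CPM and those of red cells to at most 8.74 CPM. T cell markers reached 161.4 CPM, nearly all of it from Lck, with Cd3e at 0 in every KO, RH cohort WT and RH HET library. Markers of plasma cells summed to between 1079 and 1220 CPM, most of it from Jchain, Slamf7, Mzb1 and Xbp1. Sdc1 was at most 2.15 CPM, Prdm1 at most 7.40 CPM and Tnfrsf17 at most 0.373 CPM. No pair of libraries in a group agreed within sampling noise: over 18 pairs, chi-square divided by its degrees of freedom lay between 16.3 and 209.

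The ribosomal protein genes took between 3.74% and 8.84% of all counts. Their share was 4.85%, 4.60% and 4.77% in the KO cohort WT libraries 1 to 3, and 3.74%, 4.78% and 4.62% in the KO libraries. KO 1 was the lowest of all 16 libraries, and the other 2 KO libraries lay within the range of their wild type. The share was 6.90%, 6.03% and 5.32% in the RH cohort WT libraries, 5.57%, 6.75%, 5.52% and 5.44% in the RH HET libraries, and 6.23%, 8.84% and 5.08% in the RH HOMO libraries. The 3 groups of the RH cohort overlapped, with RH HOMO 2 the highest of all libraries and RH HOMO 3 the lowest of that cohort. The 12 markers of naive follicular B cells moved the other way at both ends. Their sum was 1970 CPM in KO 1, the highest of all libraries, and 1150 CPM in RH HOMO 2, the lowest, followed by 1155 CPM in RH cohort WT 1, 1342 CPM in RH cohort WT 2 and 1385 CPM in RH HET 2. The part of these markers in the share was not tested.

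No genotype differed from its wild type in this share beyond the spread between libraries. The means were 4.38% ± 0.561 (SD, n = 3) in KO and 4.74% ± 0.125 (SD, n = 3) in its wild type, and the two-sided exact permutation test gave p = 0.5. Without KO 1 their difference shrank from −0.357 to −0.0369 percentage points. For RH HET, 5.82% ± 0.624 (SD, n = 4) stood against 6.08% ± 0.790 (SD, n = 3) in the RH cohort WT (exact permutation p = 0.629). For RH HOMO, 6.72% ± 1.92 (SD, n = 3) gave an exact permutation p = 0.8 against the wild type and 0.514 against RH HET. The signs of the RH differences rested on single libraries: without RH cohort WT 1 the RH HET difference turned from −0.259 to 0.149 percentage points. Without RH HOMO 2 the RH HOMO difference turned from 0.635 to −0.425 points. The wild type groups of the 2 cohorts did not overlap, and their difference of 1.34 points had the smallest p that 3 against 3 allows (exact permutation p = 0.1, 0.5 after adjustment over the 5 comparisons). It was 0.934 points without RH cohort WT 1.

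**Figure D1:**
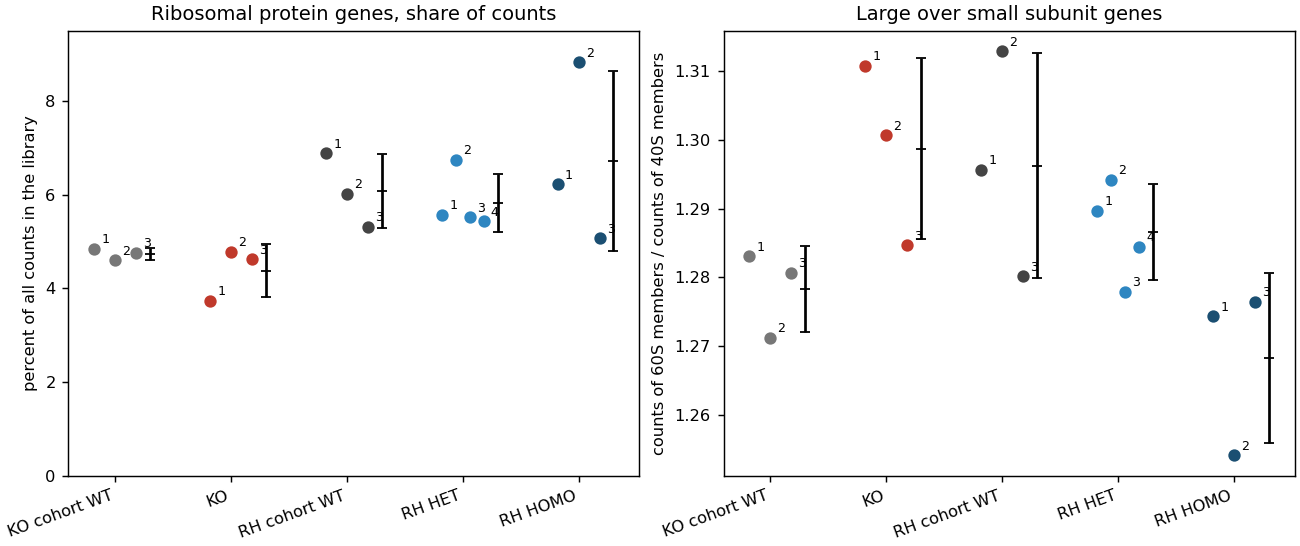
Left, the share of all counts in the 79 ribosomal protein genes (percent) for each of the 16 libraries, and right, the counts of the 60S genes divided by those of the 40S genes; points are libraries with their numbers, bars the mean and SD, and the right axis does not start at 0. KO 1 is lowest and RH HOMO 2 highest on the left, and on the right the KO libraries lie above their wild type and the RH HOMO libraries below theirs.

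Within the module the proportions were steady. Each library's ranking of the 79 genes matched every other library's, with Spearman correlations from 0.944 to 0.997 over the 120 pairs of libraries, a description over genes that share their libraries. The 5 most counted genes took between 17.0% and 18.6% of the ribosomal protein counts in each library. Rpl4, a 60S protein that lines the peptide exit tunnel, took 4.89% on average. Rpsa, the 40S protein also known as the laminin receptor, took 4.10%, and Rplp0, the base of the P stalk, 3.69%.

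Levels per length of transcript covered a wide range among genes whose proteins are needed in near equal numbers. On the RPKM scale (CPM per kilobase, over the 6 wild type libraries and the principal GENCODE transcript), the highest was Rps24, a 40S protein, at 2440 ± 327 (SD, n = 6). Rps27, a zinc-binding 40S protein, followed at 1958 ± 344 RPKM. Next came Rpl4 at 1798 ± 267, Rplp1 at 1696 ± 466 and Rpl41, which encodes the shortest protein of the ribosome, at 1650 ± 554 RPKM, all within 1 SD of each other. At the low end stood Rps15a at 132 ± 17.0 and Rps20 at 189 ± 35.4 RPKM, whose principal transcripts are annotated at 5130 and 3706 bases against a median of 774 bases. The level per length of these 2 therefore depends on the transcript taken. Rpl21, at 302 ± 75.0 RPKM, came next and has 15 rows in the table that carry its name as pseudogenes. Rows with ribosomal protein pseudogene names numbered 298, took between 0.0780% and 0.175% of the counts, and 97 of them were at 0 in every library. How reads that match several copies were counted is not given in the sources used here, so genes with close copies are uncertain.

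The members moved together from library to library. KO 1 was the lowest of the 16 libraries for 75 of the 77 genes, and RH HOMO 2 was the highest for 76 of the 77. The exceptions at the low end were lowest in KO cohort WT 2. How often these libraries were the extremes over all genes was not counted. In RH cohort WT 1 and RH HET 2, as in RH HOMO 2, all 77 genes lay above their mean over the libraries, and in KO 1 and KO 3 none did. The median deviation was −0.65 (log2) in KO 1 and 0.77 in RH HOMO 2. The genes that varied most within groups, beside the 2 copies of Rps3a1, were Rpl37a, Rpl41 and Rpl36, all of the 60S subunit, with residual SDs of 0.40, 0.36 and 0.34 (log2).

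**Figure D2:**
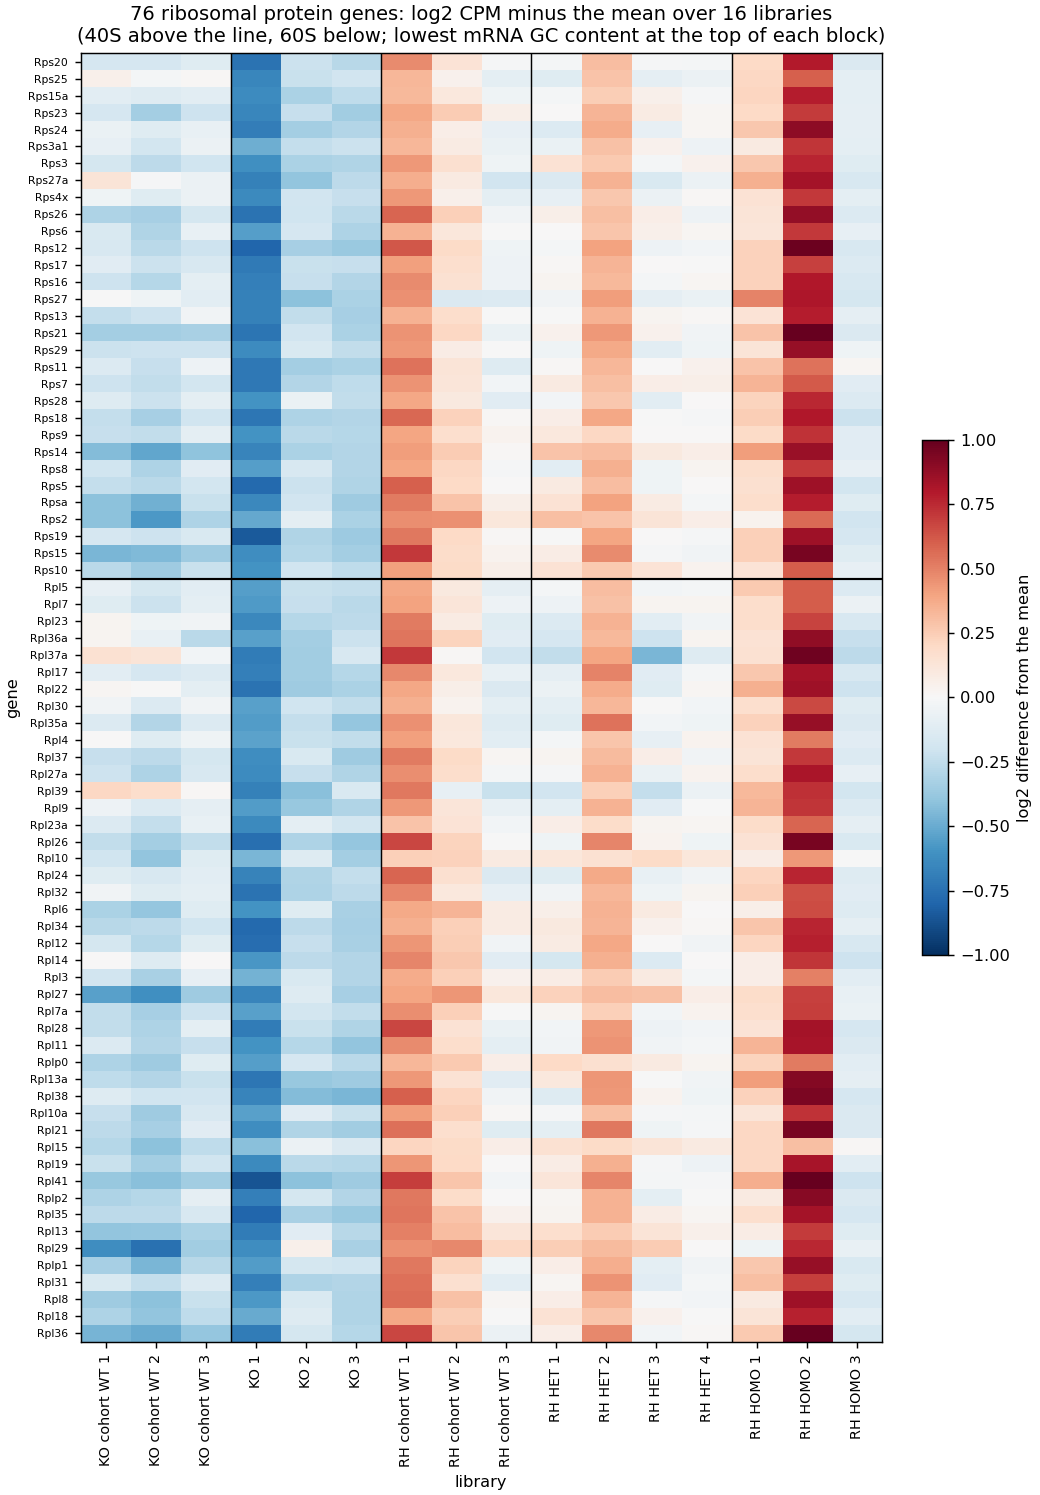
Log2 CPM of 76 ribosomal protein genes (rows, 40S above the line and 60S below, each ordered from low to high GC content of the transcript) minus the gene's mean over 16 libraries (columns); colours run from −1 to 1 and deeper values take the end colour. KO 1 is low and RH HOMO 2 high down nearly the whole column, and the KO cohort WT columns tend to be bluer in the GC-rich rows.

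No ribosomal protein gene passed the test in the KO comparison (edgeR quasi-likelihood, Benjamini-Hochberg adjustment over 16606 genes, adjusted p under 0.05), where 1.30% of all genes did. The median log2 difference of the 77 genes was −0.19, with 66 below 0 and 11 above, against a median of 0.00 and 49.7% above 0 over all genes tested. 4 had an unadjusted p under 0.05 (12.1% of all genes did), and the DESeq2 and limma-voom tests also called 0. Nearly all intervals excluded a change of 1 log2 unit, with 76 of 77 inside −1 to 1 (95% intervals).

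Rpl39, a short protein of the exit tunnel, had the largest negative difference. It stood at 337.5, 331.2 and 295.1 CPM in the KO cohort WT and at 183.1, 219.1 and 263.7 CPM in the libraries labelled KO, so the groups did not overlap. Its log2 difference was −0.53 ± 0.21 (SE, edgeR adjusted p = 0.29). Rps27a, which is made as a fusion to ubiquitin, stood at 607.5, 552.9 and 533.3 CPM against 349.3, 424.4 and 464.2 CPM, again apart, with −0.45 ± 0.20 (edgeR adjusted p = 0.368). Rpl22, a 60S protein known for its part in lymphocyte development, stood at 364.9, 357.6 and 334.7 CPM against 215.3, 280.0 and 288.1 CPM. Its difference was −0.43 ± 0.20 (edgeR adjusted p = 0.409), and every KO library was below every wild type library. Rps25, a 40S protein used by some viral internal ribosome entry sites and named here for its p after its values were seen, gave −0.36 ± 0.17 (edgeR adjusted p = 0.401). Rpl37a, a zinc-binding 60S protein, gave −0.47 ± 0.28 (edgeR adjusted p = 0.54).

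KO libraries lay entirely below their wild type for 33 of the 77 genes and entirely above for 0, where 12.7% of all genes lay apart in each direction. The 33 were 16 of the 40S and 17 of the 60S subunit. 3 genes named for the most positive differences overlapped their wild type: Rpl29 at 144.2, 229.2 and 177.1 CPM in KO against 144.3, 132.4 and 174.2 CPM, Rpl27 at 161.2, 233.2 and 202.7 CPM against 174.8, 166.6 and 199.2 CPM, and Rps2 at 432.7, 576.7 and 495.9 CPM against 464.8, 414.8 and 498.8 CPM. Their log2 differences were 0.29 ± 0.19, 0.14 ± 0.16 and 0.13 ± 0.16 (edgeR adjusted p of 0.625, 0.818 and 0.846). With only the 6 libraries of the KO cohort in the fit, 6 genes passed as lower: Rpl39, Rpl38, Rps27a, Rpl22, Rps27 and Rpl37a (edgeR adjusted p from 0.0275 to 0.0466), where 349 genes of all were lower. The median over the 77 moved from −0.19 to −0.07 without KO 1.

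No member passed in RH HET against RH cohort WT, a comparison in which 0.0181% of all genes were called. All 77 differences were below 0, with a median of −0.12, while 48.8% of all genes were above 0. The lowest edgeR adjusted p was 0.809 and 0 members had an unadjusted p under 0.05 (7.18% of all genes). DESeq2 and limma-voom called 0. In 0 of the 77 genes did the groups' CPM ranges stand apart, where 2.97% and 3.52% of all genes stood apart as higher and lower. Rpl37a had the most negative difference of the 77, with 366.8, 225.9 and 196.6 CPM in RH cohort WT and 189.3, 294.0, 163.6 and 204.8 CPM in RH HET (−0.30 ± 0.26 SE). RH cohort WT 1 was the high library. Rpl36a, an X-linked 60S gene, stood at 372.5, 300.5 and 238.1 CPM against 229.0, 323.2, 223.5 and 262.8 CPM, with overlap (−0.23 ± 0.21 SE, edgeR adjusted p = 0.824). Rpl15, a 60S core protein, hardly moved, at 403.2, 397.2 and 363.0 CPM against 387.3, 397.5, 380.9 and 370.6 CPM (−0.01 ± 0.09 SE, edgeR adjusted p = 0.981), and has the narrowest intervals of the set. All 77 intervals lay inside −1 to 1. The shared sign rests on RH cohort WT 1: without it the median was 0.015.

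RH HOMO against RH cohort WT also gave 0 called members, where 1.57% of all genes were called. Of the 77 differences 70 were above 0, with a median of 0.10 against 0.02 over all genes, of which 52.7% were above 0. The lowest edgeR adjusted p was 0.534, for Rps27, and 0 members had an unadjusted p under 0.05 (12.9% of all genes). DESeq2 and limma-voom called 0. Rps27 stood at 913.2, 603.1 and 606.5 CPM in RH cohort WT and at 940.1, 1164 and 590.0 CPM in RH HOMO, with RH HOMO 3 below every wild type library (0.34 ± 0.21 SE). Rpl13a, a 60S protein known from a complex that silences mRNAs in myeloid cells, stood at 1822, 1492 and 1249 CPM against 1807, 2555 and 1265 CPM (0.30 ± 0.20 SE, edgeR adjusted p = 0.577). In both genes the groups overlapped, as they did in all 77, where 7.39% and 8.03% of all genes stood apart as higher and lower. The median turned to −0.17 without RH HOMO 2.

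Against RH HET, the RH HOMO libraries had 76 of the 77 genes above 0 (52.6% of all genes), with a median of 0.24. In this comparison 0 members and 0 of all genes were called. The lowest edgeR adjusted p was 0.44, for Rps27a (0.39 ± 0.19 SE), and 0 had an unadjusted p under 0.05, as 11.4% of all genes did. DESeq2 and limma-voom called 0 members. Without RH HOMO 2 the median was −0.05. The test of whether the RH HOMO difference and the KO difference were unequal called 0 members, where 0.241% of all genes were called. Its median was 0.31, with 72 of the 77 above 0 (51.0% of all genes), and 6 members had an unadjusted p under 0.05 (9.53% of all genes): Rps27a, Rps27, Rpl39, Rpl22, Rps24 and Rps25. The largest of these was Rpl39 with 0.76 ± 0.30 (edgeR adjusted p = 0.402). RH HET and RH HOMO were compared with the same wild type libraries, so their differences are not independent of each other.

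**Figure D3:**
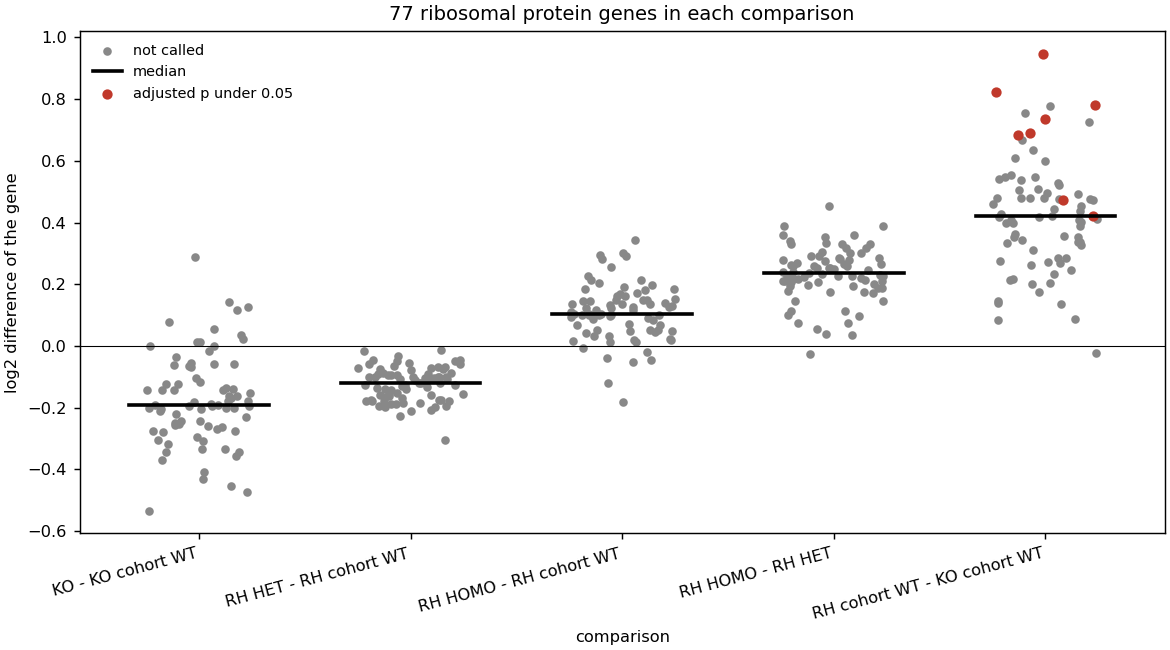
Log2 difference of each of 77 ribosomal protein genes (points) in 5 comparisons, with the median as a bar; red points passed an edgeR adjusted p under 0.05, and horizontal scatter within a comparison has no meaning. Only the comparison of the 2 wild type groups holds called genes, 8 of them, and its median is 0.42.

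The wild type groups of the 2 cohorts differed in 8 members, all higher in the RH cohort, where 3.17% of all genes were called as higher and 1.88% as lower. This comparison was added after the data were seen. The median over the 77 genes was 0.42 against 0.01 over all genes, with 76 above 0 (50.9% of all genes). Of the 77, 44 had an unadjusted p under 0.05 (25.5% of all genes), and 56 stood entirely above the KO cohort WT (17.4% of all genes). The naive follicular B cell markers summed to 1711, 1859 and 1853 CPM in the KO cohort WT and to 1155, 1342 and 1831 CPM in the RH cohort WT, and their part in the result was not tested. Rpl27, a 60S protein mutated in some cases of Diamond-Blackfan anaemia, an inherited failure of red cell production, stood at 174.8, 166.6 and 199.2 CPM in the KO cohort WT and at 335.2, 345.8 and 276.4 CPM in the RH cohort WT. Its difference was 0.82 ± 0.16 (SE, edgeR adjusted p = 0.0172). Rpl29, a heparin-binding 60S protein, stood at 144.3, 132.4 and 174.2 CPM against 303.4, 309.2 and 256.0 CPM, a difference of 0.95 ± 0.20 (edgeR adjusted p = 0.0191). Both pairs of groups were well apart. Rps2, at the mRNA entry of the 40S subunit, stood at 464.8, 414.8 and 498.8 CPM against 851.6, 846.2 and 669.3 CPM (0.78 ± 0.16 SE, edgeR adjusted p = 0.0191). Rpl15 stood at 284.8, 261.7 and 292.2 CPM against 403.2, 397.2 and 363.0 CPM (0.47 ± 0.10 SE, edgeR adjusted p = 0.0194).

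Further called members were Rpl13 (0.68), Rps14 of the 40S platform (0.69) and Rpl10, which completes the 60S subunit late in its assembly (0.42), with edgeR adjusted p from 0.0374 to 0.0444. Each of the 8 was called in between 9 and 12 of the 18 alternative analyses. With RH cohort WT 1 counted in the KO cohort, as its batch tag has it, 0 members and 0 of all genes were called. The count also fell to 0 without any 1 of KO cohort WT 1, KO cohort WT 2, RH cohort WT 1 or RH cohort WT 2, was 4 without KO cohort WT 3 and rose to 20 without RH cohort WT 3. How many of all genes were called with 1 library left out is not given here. The share of counts from mitochondrially encoded genes was also higher in the RH cohort WT, at 7.34%, 7.15% and 4.72% against 3.90%, 4.47% and 4.03%, and with a term for that share 0 members were called. Its part in the result was not tested further. KO and the RH genotypes come from different cohorts, so between their libraries cohort and genotype cannot be told apart.

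**Figure D4:**
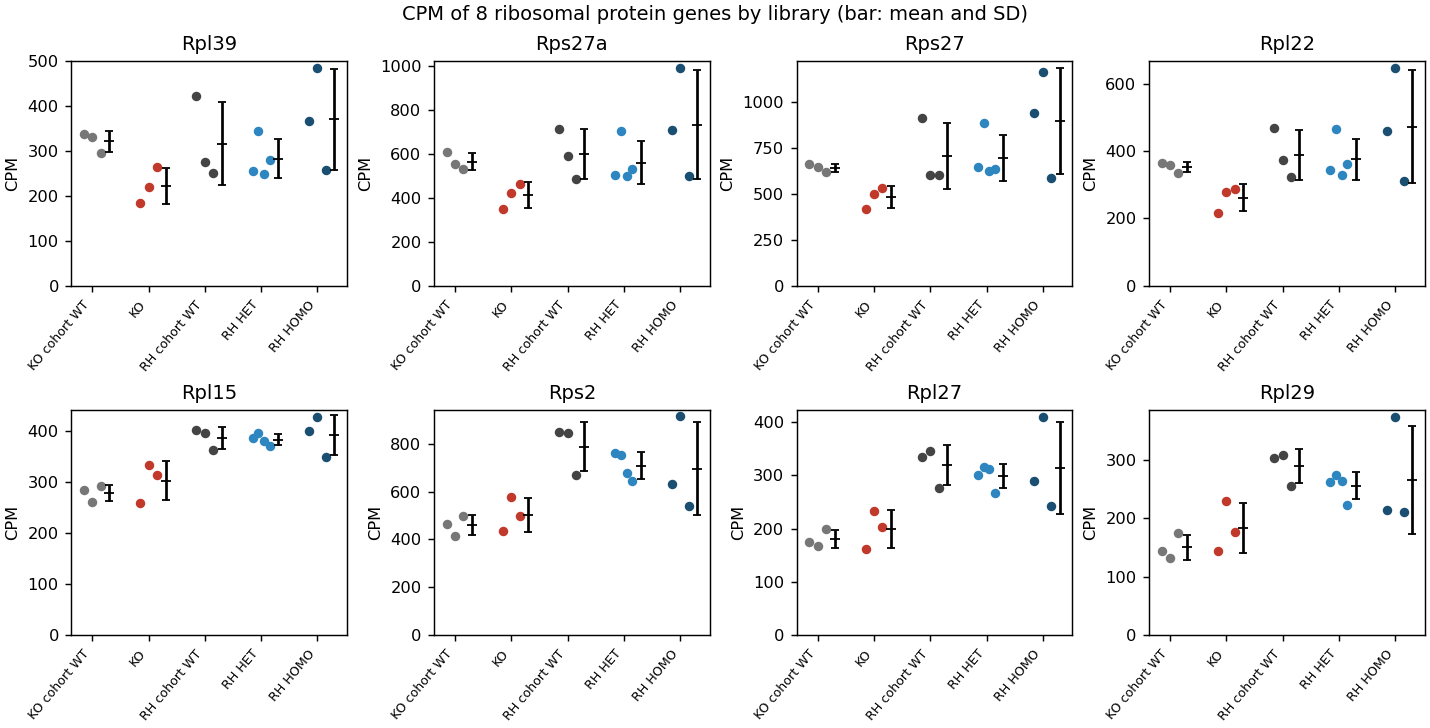
CPM of 8 ribosomal protein genes in each library, by group, with the mean and SD as bars; each axis starts at 0. In the upper row (Rpl39, Rps27a, Rps27, Rpl22) the 3 KO libraries lie below the KO cohort WT, and in the lower row (Rpl15, Rps2, Rpl27, Rpl29) the RH cohort libraries lie above the KO cohort WT.

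The balance of large to small subunit counts moved little, between 1.254 and 1.313, but in opposite directions in the 2 homozygous genotypes. The ratio of 60S to 40S counts was 1.283, 1.271 and 1.281 in the KO cohort WT and 1.311, 1.301 and 1.285 in KO, so all KO libraries were above. It was 1.296, 1.313 and 1.280 in the RH cohort WT, 1.290, 1.294, 1.278 and 1.285 in RH HET, and 1.274, 1.254 and 1.277 in RH HOMO, so all RH HOMO libraries were below both other groups. The differences were 0.0204 for KO and −0.0279 for RH HOMO, each with an exact permutation p = 0.1, the smallest that 3 against 3 allows (0.167 after adjustment over 5 comparisons). RH HOMO against RH HET gave −0.0182 with an exact permutation p = 0.0571, the smallest for 3 against 4. The RH HET difference, −0.00969, gave an exact permutation p = 0.343. The wild type groups differed by 0.0179 (exact permutation p = 0.3), so that cohort and genotype differences were of like size.

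The GC content of the members' transcripts ran from 41.3% (Rps20) to 60.8% (Rpl36). Member differences rose with it for KO and between the wild type groups. Between the wild type groups, the Spearman correlation of a gene's log2 difference with its GC content was 0.695 over the 77 members and 0.397 over the 16423 other genes with a value. In the KO comparison it was 0.599 and 0.212. The 20 members of lowest GC content had a median difference of 0.24 between the wild type groups and the 20 of highest GC content 0.57. For KO the same medians were −0.26 and −0.04. In the RH comparisons the correlation had the other sign over the members, −0.297 for RH HET and −0.365 for RH HOMO, and was near 0 over the other genes, −0.063 and −0.081. With transcript length, the member correlation was −0.37 for RH HOMO, 0.052 for RH HET, 0.102 for KO and 0.032 between the wild type groups. For RH HOMO against RH HET it was −0.461 with length and −0.165 with GC content (−0.22 and −0.036 over the other genes). These are descriptions over genes that share their libraries. The KO comparison and that of the wild type groups also subtract the same KO cohort WT libraries, so their correlations are not independent of each other. Single libraries also differed along GC content over all genes: the correlation of a gene's deviation with its GC content was between −0.356 and −0.227 in the KO cohort WT and between 0.114 and 0.235 in the RH cohort WT. With GC content taken out per library, 3 members were called between the wild type groups. The same fit called no member for KO, RH HET or RH HOMO. The part of GC content in these differences was not tested further.

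**Figure D5:**
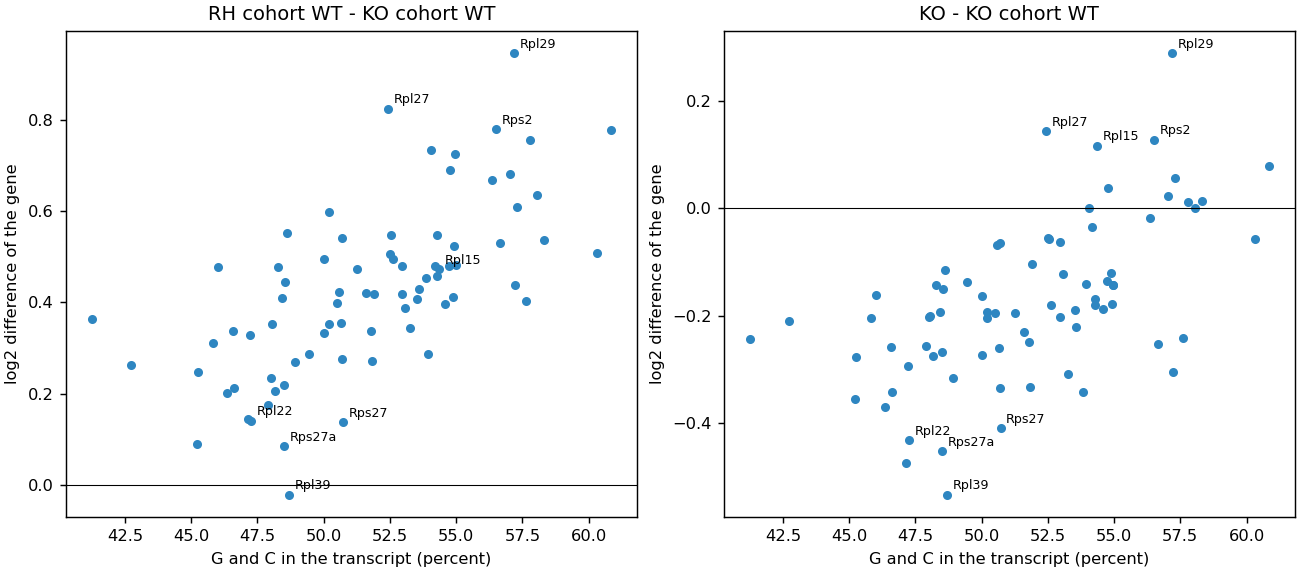
Log2 difference of 77 ribosomal protein genes against the GC content of the transcript (percent), between the 2 wild type groups (left) and for KO against its wild type (right); each point is a gene, and genes named in the text are labelled. Differences rise with GC content on both sides, with Rpl39 and Rps27a low and Rpl29, Rpl27 and Rps2 high on both. Both sides subtract the same KO cohort WT libraries, so they are not independent of each other.

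By place in the ribosome no group of members held a called gene in any genotype. The 10 proteins at the rim of the exit tunnel, where new chains leave, had a median KO difference of −0.26 with 10 of 10 below 0. Of these, 7 stood entirely below the wild type, beside 33 of the 77 members and 12.7% of all genes, and whether the group differs from the other members was not tested. The 9 proteins along the mRNA channel of the 40S subunit had a KO median of −0.12 with 6 of 9 below 0 and 1 apart, and 2 of them, Rps2 and Rps14, were called between the wild type groups. For RH HOMO the medians of these groups were 0.12 and 0.07. The P stalk, which recruits the elongation factors, consists of Rplp0, Rplp1 and Rplp2, with KO differences of −0.06, 0.06 and −0.14 and RH HOMO differences of 0.01, 0.14 and 0.10. Rplp0 stood at 1624, 1566 and 1848 CPM in the KO cohort WT and at 1371, 1788 and 1665 CPM in KO, and the groups overlapped.

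Rpl5 and Rpl11 form with the 5S rRNA the particle that binds MDM2 when ribosome assembly fails. Rpl5 stood at 1131, 1059 and 1107 CPM in the KO cohort WT and at 815.6, 1022 and 1013 CPM in KO, all below (−0.21 ± 0.16 SE, edgeR adjusted p = 0.696). Rpl11 gave −0.20 ± 0.20 in KO and 0.19 ± 0.20 in RH HOMO (edgeR adjusted p of 0.767 and 0.752). Among 14 tested p53 targets on the list for ribosomal stress, 2 passed as higher in KO, Tnfrsf10b, a death receptor (1.37 ± 0.29 SE, edgeR adjusted p = 0.0247), and Zmat3, an RNA-binding protein (0.66 ± 0.14 SE, edgeR adjusted p = 0.0301), where 1.30% of all genes were called. In RH HOMO the same genes gave 0.76 ± 0.29 and 0.36 ± 0.14 (edgeR adjusted p of 0.241 and 0.275), and the test of the difference between the RH HOMO and KO effects gave edgeR adjusted p of 0.685 and 0.693. Rps6, the 40S protein phosphorylated by the S6 kinases, stood at 1010, 909.9 and 1062 CPM in the KO cohort WT and at 764.4, 995.5 and 902.4 CPM in KO (−0.16 ± 0.16 SE, edgeR adjusted p = 0.778). Of the 18 members mutated in Diamond-Blackfan anaemia, 15 were below 0 in KO, 18 in RH HET and 1 in RH HOMO, and 0 passed. The same sign prevailed over all members in each of these comparisons, while 49.7%, 48.8% and 52.7% of all genes were above 0. Whether these genes differ from the other members was not tested.

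Ribosome constituents outside the symbol rule include Fau, made as a fusion to a ubiquitin-like protein, and the 40S scaffold Rack1. Their KO differences were −0.06 and −0.15, and their differences between the wild type groups 0.65 and 0.38 (edgeR adjusted p of 0.0589 and 0.129). Of 9 paralogs, 7 were tested and 0 passed for any genotype. Rpl22l1, the paralog that can stand in for Rpl22, was at 84.5, 77.1 and 76.9 CPM in the KO cohort WT and at 60.3, 54.3 and 74.3 CPM in KO (−0.34 ± 0.18 SE, edgeR adjusted p = 0.494), below the wild type in every library and in the same direction as Rpl22. Rps4l, an autosomal copy of the X-linked Rps4x, is annotated as a transcribed processed pseudogene. It was between 1.86 and 6.30 CPM and higher in the RH than the KO cohort WT (1.24 ± 0.28 SE, edgeR adjusted p = 0.0231). Rps27rt, a copy of Rps27, was also higher there (0.65 ± 0.17 SE, edgeR adjusted p = 0.038). Rpl36al, a copy of Rpl36a, lay between 98.3 and 251.9 CPM, and Rpl39l was at most 0.76 CPM. Rps27l lay between 35.4 and 73.5 CPM, and Rpl7l1 between 93.4 and 146.1 CPM.

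In 5 further lists of genes tied to protein synthesis, 0 passed in KO, RH HET or RH HOMO. Of the 19 translation factors whose mRNAs are known to carry the TOP motif, 19 were below 0 in KO, with a median of −0.16. Of these, 8 lay entirely below the wild type (12.7% of all genes), and 0 passed in KO, RH HET or RH HOMO. The 31 genes of ribosome biogenesis and RNA polymerase I had medians of −0.09 in KO, −0.17 in RH HET and −0.04 in RH HOMO, with 0 called in each. The 16 tested genes of mTOR signalling and its TOP regulators had medians of −0.01, −0.01 and −0.10 in KO, RH HET and RH HOMO. The 8 chaperones of ribosomal proteins had −0.03, −0.09 and 0.14, and the 8 tested snoRNA host genes, whose own transcripts carry the motif, −0.16, −0.20 and 0.17. Between the wild type groups, 5 genes of these lists passed, all higher in the RH cohort, where 3.17% of all genes were called as higher. They were Bop1 (0.45), Rrs1 (0.43) and Rrp9 (0.82) of biogenesis, the chaperone Grwd1 (0.61) and Akt1s1 of the mTOR list (0.60).

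2 other gene sets had the same extreme libraries. The 46 nuclear genes of the respiratory chain took 0.268% of the counts in KO 1 and 0.579% in RH HOMO 2, the lowest and highest of the 16 libraries, as for the ribosomal proteins. The 31 genes of the proteasome took 0.393% in KO 1 and 0.619% in RH HOMO 2, also the extremes. In the KO comparison the respiratory chain had a median of 0.01 with 24 of 46 above 0, against −0.19 for the ribosomal proteins; this difference between sets was not tested. In RH HOMO against RH HET all 46 respiratory chain genes and all 31 proteasome genes were above 0 (52.6% of all genes). Their medians were 0.30 and 0.25, and 0 were called. RH HOMO 2 was the high library: the respiratory chain took 0.414% and 0.334% in RH HOMO 1 and 3, against 0.341% to 0.413% in RH HET. The proteasome took 0.492% and 0.444% in RH HOMO 1 and 3, against 0.428% to 0.478% in RH HET. Between the wild type groups 7 of the 46 and 3 of the 31 passed, all higher in the RH cohort, beside 8 of the 77 ribosomal protein genes and 3.17% of all genes.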

How the data were processed

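Libraries were made from total RNA with a TruSeq RNA kit, per the labels' protocols. The deposited table holds raw counts per gene, made with CASAVA 1.8, HISAT2 and featureCounts on mm10, per the submitters' processing notes. The other versions, and how strand and multi-mapping reads were treated, were not given in the sources used here. From the deposited counts, edgeR 4.0.16 (R 4.3.3) kept 16606 of 48593 genes (filterByExpr), scaled libraries by TMM and tested 5 group means over all 16 libraries by quasi-likelihood, with Benjamini-Hochberg adjustment over all genes. CPM are scaled by TMM. Shares of counts were compared by two-sided exact permutation tests over libraries. Transcript length and GC content came from GENCODE M21 (GRCm38; best supported, then shortest coding transcript), and start windows from RefSeq. Alternatives included DESeq2 1.42.0 and limma 3.58.1 (voom with quality weights). The steps were tested on simulated data.

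The members and gene lists were chosen with earlier results of these data known. Genes were named if they were called members, the 3 most positive or negative differences of each genotype, fixed roles (5S particle, P stalk, Rps6, Rpl22, Rps27a), the 5 highest, lowest and most variable members, the other constituents and paralogs, or called genes of a list. Not every gene that met this rule is reported here by name. The lists also covered ribosome rescue and RNA-like ribosomal rows, in neither of which a gene was called in KO, RH HET or RH HOMO. Among the cell type markers Rgs13 was lower in KO, and Mef2b lower and Thy1 higher in RH HOMO. Thy1 was near the floor, at 0.419, 0.200 and 0.281 CPM in RH cohort WT and 1.03, 1.87 and 1.08 CPM in RH HOMO. Of the other tested T cell markers in that comparison, Cd5, Cd28, Cd4 and Lck were below 0 and Trac above 0, and none passed. Counts of 41362856 to 93040297 per library make counting error small beside the spread between libraries.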

Additional observations from a re-analysis of the deposited data

Results flagged for a closer look

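RH HET 2 stood apart from the other 3 RH HET libraries by Dixon's criterion, which chance meets in about 1 in 20 groups. Its ribosomal protein share was 6.755% of counts, against 5.44% to 5.57% in the others, with 2.944% in 40S and 3.811% in 60S genes. In 26 members 1 RH HET library stood apart in this way, and the share of all genes that did is not given here. Over the tested genes, chi-square divided by its degrees of freedom was 71.2 to 75.8 for pairs with RH HET 2. For the other RH HET pairs it was 16.3 to 25. Of the genes named in the text, RH HET 2 stood apart with 887 CPM for Rps27, 868 CPM for Rpl11, 844.9 CPM for Rps20 and 1357 CPM for Rps6. It also did so with 388.2 CPM for Rpl21, 1482 CPM for Rpl5, 707.4 CPM for Rps27a, 315.2 CPM for Rpl36 and 809.4 CPM for Rps25. Since the members move together, these are not separate findings. The mitochondrial share of this library, 5.84%, was also the highest of the 4, and its part in the result was not tested. The RH HET difference in the ribosomal protein share was −0.569 percentage points without it and −0.259 with it.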

How the results depend on the processing

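No paired analysis was possible because the labels carry no replicate numbers. For KO, RH HET, RH HOMO and RH HOMO against RH HET, counts of called members stayed at 0 under every alternative run, except that a fit to the 6 KO cohort libraries called 6 as lower. In the test of RH HOMO against KO differences, limma-voom called 1 higher (Rps27) and 1 lower (Rpl29). Between the wild type groups, 8 members were called as higher; the count was 27 with no filter, 13 with 1 CPM in 3 libraries, 24 with DESeq2, 49 with limma-voom, 22 at adjusted p under 0.1 and 37 with only the 6 libraries. It was 3 with the GC-content offset, 0 with RH cohort WT 1 moved to the KO cohort, 0 with a mitochondrial term, and 0 to 20 with 1 library left out. For most of these settings the number of all genes called is not given here, so the counts describe the members only.

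The RH HET difference in share was 0.149 points with RH cohort WT 1 moved, and −0.639 to 0.149 with 1 library left out. Leaving out 1 library gave −0.425 to 1.45 for RH HOMO and −0.166 to 1.71 for RH HOMO against RH HET. For the medians of members it gave −0.212 to 0.015 for RH HET, −0.168 to 0.296 for RH HOMO and −0.047 to 0.415 for RH HOMO against RH HET. The median RH HET difference of members became 0.018 with RH cohort WT 1 moved and 0.169 with the mitochondrial term; 0.015 came without RH cohort WT 1. The RH HOMO median became −0.013 with limma-voom, −0.168 without RH HOMO 2, −0.007 without RH cohort WT 3 and −0.029 without RH cohort WT 1 and RH HOMO 2. The cause was not tested. The alternatives for the wild type groups, the medians and the GC-content offset were chosen after seeing the data.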
